A study of Mus musculus with 24 samples.

Results

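Nmnat2 and 7 other genes of the axon survival pathway were described, 8 of the 24062 genes counted. They were Nmnat2, Nmnat1, Nmnat3, Nampt, Sarm1, Mycbp2, Map3k12 and Stmn2, found by symbol, and all 8 were in the count files. Nmnat2 was selected on its measured 3′ untranslated region (UTR) use in the affinity-purified RNA, which differed between genotypes, so its values in that contrast are given as a description with no test. The other 7 were added for their known link to it. Together the 8 genes had 10 events in the deposited tables of isoform use: 3 tandem UTR events (Nmnat2, Stmn2 and Nampt) and 7 splicing events (5 in Map3k12, 1 in Mycbp2 and 1 in Sarm1).

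NMNAT2 is a short-lived enzyme that makes NAD in axons and must be replaced by transport from the cell body. When its supply stops, its substrate rises and NAD falls, which switches on SARM1, an enzyme that destroys NAD and carries out the breakdown of the axon. NAMPT makes the NMNAT substrate, the ubiquitin ligase MYCBP2 (PHR1) marks NMNAT2 for degradation, the kinase MAP3K12 (DLK) signals axon injury to the nucleus, and STMN2 is another short-lived axonal protein, which binds tubulin.

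The study compared Celf6 knockout (KO) with wild-type (WT) mice at postnatal day 9. CELF6 binds RNA and belongs to a family of splicing and mRNA stability regulators. RNA came from brain tissue just behind the thalamus, without cortex, as total RNA (input) or as RNA on ribosomes of serotonin cells, pulled down through a serotonin-cell TRAP allele (translating ribosome affinity purification). By the series text, 5 brains per genotype gave both kinds of RNA, so the TRAP and input libraries of a group are not separate animals. The labels give no strain name, sex or further alleles. There were 5 KO TRAP, 5 WT TRAP and 5 KO input libraries and 3 WT input libraries. WT input had fewer because replicate 4, which the submitters mark as an outlier, was not used. In addition, its replicates 2 and 3 differed no more than repeat runs of 1 library and were counted as 1 sample, called WT input 2/3.

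The libraries held 3390423 to 6861963 counts each before that pair was summed. The targeted gene, Celf6, lay at 21.4 to 56.6 counts per 1000000 (CPM) in 4 KO TRAP libraries and at 84.8 to 186 CPM in WT TRAP. KO TRAP 1 had 114 CPM, within the WT range, and WT input 2/3 had 15.5 CPM, within the KO input range of 4.78 to 22.2 CPM. KO TRAP 1 and WT input 5 each held reads of both Xist (70.8 and 36.5 CPM) and Y-linked genes (28.6 and 9.79 CPM summed), while the other 16 libraries held at most 1 of the 2 above 3 CPM. WT TRAP 5, by label the same brain as WT input 5, had 0.472 CPM of Xist and 70.9 CPM of Y-linked genes, and KO input 1, by label the same brain as KO TRAP 1, had 104 and 0.507 CPM, so neither mixed library matched its partner. The other same-numbered libraries matched in this. The 11 serotonin neuron markers summed to 4200 to 10600 CPM in TRAP and 212 to 337 CPM in input, and all 11 passed the edgeR test as higher in TRAP. Oligodendrocyte markers summed to 1090 to 5580 CPM in TRAP and 5050 to 13000 CPM in input, and astrocyte markers to 552 to 1360 and 1100 to 2300 CPM. In the other marker lists no gene passed an adjusted p of 0.05 as higher in TRAP. Those that passed as lower were 2 of 5 GABAergic and glycinergic, 3 of 5 glutamatergic, 1 of 5 dopaminergic and noradrenergic, 1 of 8 pan-neuronal and 2 of 6 fibroblast markers, with 0 of 8 microglial, 0 of 7 vascular and 0 of 5 choroid plexus markers. The medians of these 3 lists, TRAP minus input on the log2 scale, were −1.57, −0.53 and −1.66. Of all 14261 genes tested, 2.41% passed as higher in TRAP and 2.31% as lower.

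Nmnat2 lies on chromosome 1 at 152955101 to 153119261 on the plus strand (mm10), with 11 exon intervals and 4523 counted exon bases. Its tandem UTR event contrasts a 3′ UTR of 3596 bases (153115670 to 153119265) with one that ends at 153116070 after 401 bases. The 3195 bases between these ends supply 3191 of the counted exon bases, 70.6% of them, so a molecule with the shorter end offers far fewer positions to the gene count. PSI, the fraction of a gene's transcripts with a given isoform, was estimated by the authors with MISO. Per the file headers a PSI of 1 means the shorter UTR, a direction that could not be checked against reads here, and only values with a credible interval at most 0.20 wide were kept.

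In TRAP the Nmnat2 PSI was 0.979, 0.977, 0.983 and 0.979 in KO replicates 1, 3, 4 and 5, and 0.554, 0.585 and 0.347 in WT replicates 1, 2 and 4. The 4 KO values lay within 0.00604 of each other and all above the 3 WT values, which spread over 0.238. KO replicate 2 and WT replicates 3 and 5 had no value. On the scale log2(PSI/(1−PSI)) the mean of the KO libraries was 5.63 above that of the WT libraries, which is the contrast that chose the gene and is given with no test. It was 5.65 without KO TRAP 1, the library with a WT-like Celf6 level. In the authors' deposited table the median PSI difference was 0.425. The summed level of the 8 microglial markers did not overlap between these groups either. It was 9.03 to 23.1 CPM in KO TRAP (1 of the 8 genes at 0 throughout) and 32.4 to 90.9 CPM in WT TRAP. Only 4 of the 8 had enough reads for the edgeR test in TRAP. In TRAP the sums of every other marker list overlapped between genotypes. In input the microglial sums overlapped too (58.8 to 70.3 CPM in KO, 24.4 to 138 CPM in WT). The part of these markers in the UTR difference was not tested.

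The input libraries were not used in that choice, although they come from the same brains by label. Here the Nmnat2 PSI was 0.952, 0.505, 0.521, 0.972 and 0.945 in KO replicates 1 to 5, and 0.560 and 0.508 in WT replicates 1 and 2. KO replicates 1, 4 and 5 lay above both WT libraries, KO replicates 2 and 3 lay at the WT level, and WT replicates 3 and 5 had no value. The mean KO library was 2.55 above the mean WT library on the log2(PSI/(1−PSI)) scale (n = 5 and n = 2; exact permutation over 21 splits, 2-sided p = 0.381). The smallest p that 5 against 2 can give is 0.0476, and the difference did not exceed the spread among the KO libraries. The 6 fibroblast and meninges markers summed to 441 to 991 CPM in KO input and 1210 to 1480 CPM in WT input, with no overlap, and their part in the PSI values was not tested. The sums of every other marker list overlapped between genotypes in input. No marker of any list passed the edgeR test between genotypes, in TRAP or in input. Nor did any other gene, of 12204 tested in TRAP and 13036 in input, Celf6 included, so the markers are not shown to be equal.

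Over both RNA kinds the 14 values fell at 2 levels with nothing between them. The lower level held 7 libraries with a PSI of 0.347 to 0.585, and the upper held 7 libraries at 0.945 to 0.983. All 5 WT libraries with a value were at the lower level, and 7 of 9 KO libraries were at the upper. The 7 TRAP values among the 14 are those that chose the gene, so this split by genotype is a description with no test. TRAP and input libraries of 1 brain are also not separate animals. KO brain 3 was at the upper level in TRAP (0.977) and at the lower in input (0.521). The KO input range of 0.467 was wider than that of 91.1% of the 405 tandem UTR events with at least 3 KO input values. Whole-gene read numbers of libraries with and without a value overlapped: WT TRAP 4 had a PSI with 911 Nmnat2 reads, while KO TRAP 2 had none with 1577. Reads on the UTR event itself were not available, and why some libraries had no value was not tested. Between RNA kinds, the mean Nmnat2 PSI was 1.77 higher in TRAP on the log2(PSI/(1−PSI)) scale, adjusted for genotype (7 TRAP and 7 input libraries). The genotypes differed in this. Within KO the mean PSI was 0.9795 in TRAP and 0.7791 in input (4 and 5 libraries). Within WT it was 0.4952 and 0.5339 (3 and 2 libraries), with no rise in TRAP. These values are given with no test because the TRAP values are those that chose the gene.

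**Figure D1:**
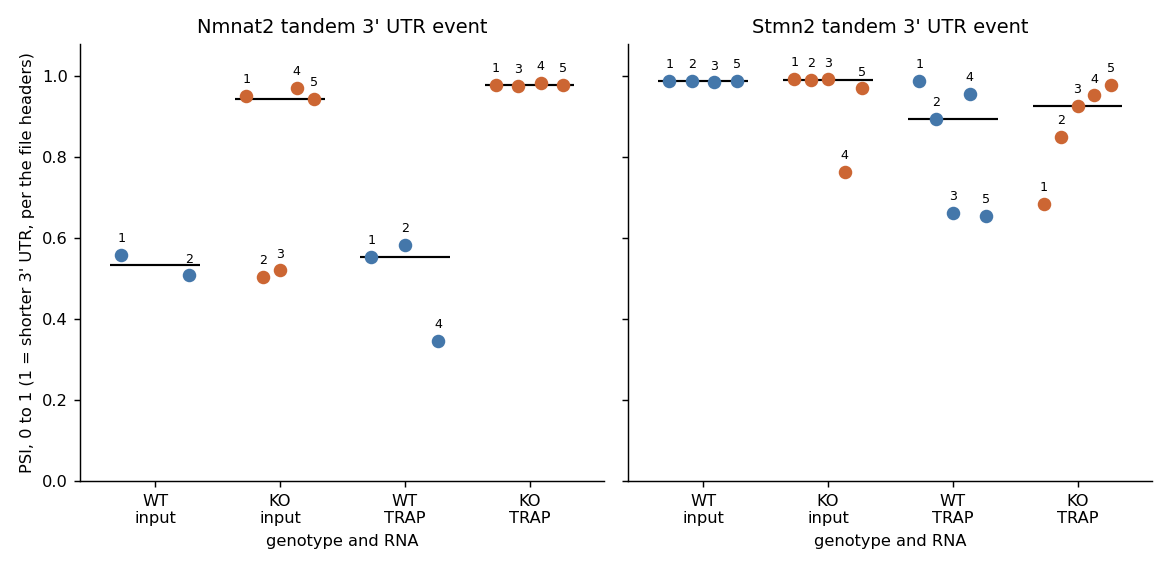
PSI of the tandem 3′ UTR events of Nmnat2 and Stmn2 (vertical axis, a fraction) in each library with a value, by genotype and RNA; numbers are replicates, black lines are medians, and WT input 2 and 3 are drawn apart. Nmnat2 values sit at 0.347 to 0.585 or at 0.945 to 0.983, with all 5 WT points low, while Stmn2 values of both genotypes overlap in TRAP. The Nmnat2 values in TRAP are those that chose the gene.

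Per length of exon, the 8 transcripts spanned a wide range of levels. Stmn2 averaged 892 ± 118 CPM per kb of exon (SD, n = 18 libraries) and Nmnat2 73.8 ± 20.8, and the lowest Stmn2 library, at 695 CPM per kb, was above the highest Nmnat2 library, at 119. Sarm1 (25.9 ± 11.02), Mycbp2 (22.5 ± 11.4), Map3k12 (22.5 ± 6.87) and Nampt (17.0 ± 7.68 CPM per kb) came next, and these 4 neighbours differed by less than the spread between libraries. Nmnat1 averaged 1.14 ± 1.67 and Nmnat3 0.567 ± 1.04 CPM per kb, so Nmnat2 was the most abundant of the 3 NMNAT transcripts in these libraries by this measure. The measure may miss reads of Nmnat1 and Nmnat3, whose counted exons stop short of their annotated 3′ ends.

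Between libraries, Stmn2 and Nmnat2 also varied least. The coefficient of variation of CPM over the 18 libraries was 13.3% for Stmn2, 28.1% for Nmnat2, 30.6% for Map3k12, 42.5% for Sarm1, 45.2% for Nampt and 50.6% for Mycbp2. The median over 11350 genes with a mean of at least 5 CPM was 51.4%, and 7.1% of them had a smaller coefficient than Nmnat2. Those genes were not matched in level to Nmnat2 or Stmn2, which averaged 334 and 1698 CPM. The part of read number in the low coefficients was not tested.

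No tested member passed the threshold between genotypes in gene counts. Nor did the targeted gene, Celf6, with a log2 fold change of −1.517 in TRAP (edgeR, adjusted p = 0.999) and −1.565 in input. In simulated counts the same test found 3% of 2-fold and 44% of 4-fold changes in TRAP, and 5% and 42% in input. An uncalled gene is therefore not shown to be unchanged. In TRAP, 0 of the 5 tested members other than Nmnat2 passed an adjusted p of 0.05 (edgeR quasi-likelihood test), with a median log2 fold change, KO minus WT, of 0.33 against 0.03 over all genes. Among all 12204 genes tested, 0 passed (0%), 455 had an unadjusted p below 0.05, and DESeq2 called 9. In input, 0 of 6 passed, with a median of −0.13 against 0.02 over 13036 genes, of which 0 passed (0%), 376 had an unadjusted p below 0.05 and DESeq2 called 4. In both comparisons no tested member had an unadjusted p below 0.05. Nmnat1 and Nmnat3 did not pass the filter on low counts in either. The 2 comparisons use different libraries of the same brains, and no gene of 14261 (0%) passed the test of their difference.

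**Figure D2:**
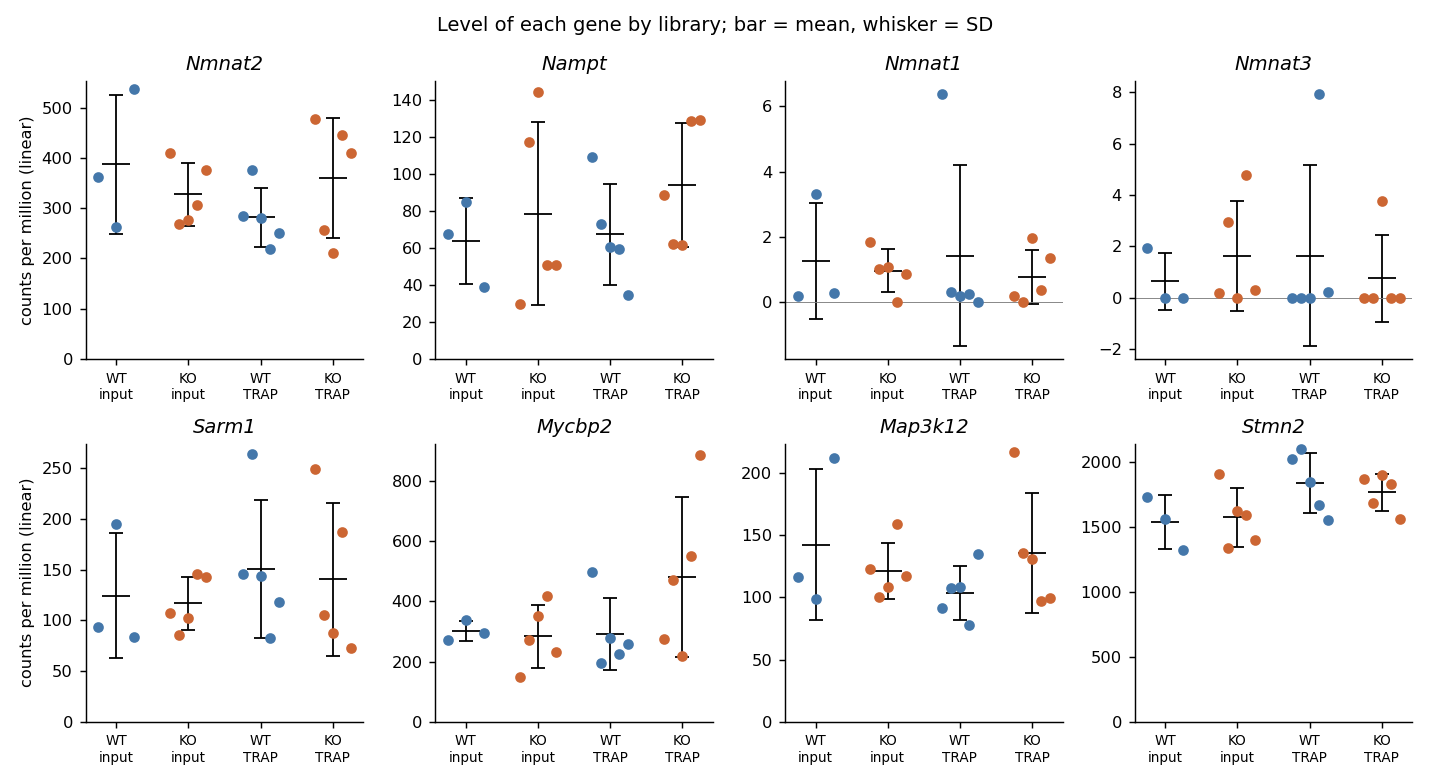
CPM (vertical axis, linear, own scale per gene) of each gene in every library by genotype and RNA; points are libraries, bars the mean and whiskers the SD. KO and WT libraries overlap for all 8 genes, Stmn2 stays between 1324 and 2105 CPM, and Nmnat3 is at 0 in 10 of 18 libraries.

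Nmnat2 itself was at 477, 257, 210, 446 and 409 CPM in KO TRAP replicates 1 to 5, and at 284, 375, 280, 219 and 250 CPM in WT TRAP. KO libraries 1, 4 and 5 lay above every WT library and KO 3 lay below every one, so the genotypes overlapped. The log2 fold change was 0.33, given without a test because this is the contrast that chose the gene. It was −0.07 within sequencing run 1 (replicates 1 to 3) and 0.87 within run 2 (replicates 4 and 5), and 0.16 without KO TRAP 1, the highest library. KO TRAP 3, with the lowest Nmnat2 level of the group, had a UTR PSI within 0.00604 of that of KO TRAP 1, with the highest.

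In input, Nmnat2 was at 410, 268, 276, 307 and 376 CPM in KO replicates 1 to 5 and at 362, 263 and 537 CPM in WT input 1, 2/3 and 5. All KO values lay inside the WT range. The log2 fold change was −0.24 ± 0.25 (SE; 95% interval −0.77 to 0.30), within the spread, and it was 0.02 without WT input 5, the highest of the 18 libraries and 1 of the 2 with both Xist and Y-linked reads. Within runs 1 and 2 the difference was 0.02 and −0.66. Between RNA kinds Nmnat2 differed by −0.15 ± 0.20 (TRAP minus input, adjusted p = 0.744), and by 0.13 ± 0.26 within KO and −0.44 ± 0.30 within WT.

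Of the other NAD-making members, Nampt encodes the enzyme that makes nicotinamide mononucleotide from nicotinamide. It was at 88.8, 62.0, 61.7, 128 and 129 CPM in KO TRAP 1 to 5 and at 109, 72.7, 60.6, 59.4 and 34.5 CPM in WT TRAP. The groups overlapped, with the 2 run 2 KO libraries highest and WT TRAP 5 lowest. The log2 fold change was 0.44 ± 0.37 (95% interval −0.34 to 1.22, adjusted p = 0.999), and −0.17 within run 1 and 1.499 within run 2. In input it was 0.35 ± 0.43, with KO libraries from 29.9 to 144 CPM on both sides of the WT libraries (38.9 to 85.0 CPM).

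Nmnat1, the nuclear NMNAT, and Nmnat3, the mitochondrial one, were close to absent from these counts. Their counted exons stop short of the 3′ ends in the RefSeq annotation. For Nmnat1 (minus strand) they end at 149468787 against 149467569, and for Nmnat3 (plus strand) at 98411428 against 98420533. Reads beyond the counted ends were not included, so low counts need not mean low expression, and this was not tested. Nmnat1 had 119 reads over all 18 libraries, 39 of them in WT input 2/3 and 27 in WT TRAP 1. Nmnat3 had 112 reads, of which 33 were in WT TRAP 4, 25 in KO TRAP 3 and 20 each in KO input 2 and KO input 4; it was at 0 in 10 libraries. Both were tested only between RNA kinds, where the intervals ran from −2.17 to 2.32 and from −3.06 to 2.81 on the log2 scale. A several-fold difference either way was not detectable with so few counted reads.

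Sarm1, the executioner NADase, was at 249, 105, 87.8, 187 and 72.5 CPM in KO TRAP 1 to 5 and at 146, 264, 144, 82.3 and 118 CPM in WT TRAP. Both groups covered nearly the same range. The log2 fold change was −0.06 ± 0.36 (95% interval −0.82 to 0.69), and its sign turned when any of 4 single libraries was left out. In input it was −0.13 ± 0.35, with KO libraries at 86.0 to 146 CPM and WT libraries at 83.7 to 195 CPM, and it was 0.38 without WT input 2/3. Between RNA kinds Sarm1 differed by 0.27 ± 0.27 (adjusted p = 0.654). Its only splicing event, a pair of 3′ splice sites 120 bases apart, had 1 value, 0.0646 in KO TRAP 3.

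Mycbp2, the ligase that turns NMNAT2 over, was at 274, 471, 218, 551 and 887 CPM in KO TRAP 1 to 5 and at 497, 197, 279, 225 and 257 CPM in WT TRAP. KO TRAP 5 was the highest of all 18 libraries, and the ranges overlapped. The log2 fold change was 0.60 ± 0.35 (95% interval −0.14 to 1.34; adjusted p = 0.999), the furthest from 0 of the tested members, and it was 0.02 within run 1 and 1.54 within run 2. In input the difference was −0.12 ± 0.30, with KO libraries at 148 to 418 CPM around the WT libraries at 273 to 337 CPM. The difference between these 2 genotype effects was 0.76 ± 0.49 (adjusted p = 1).

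Within KO, Mycbp2 was 0.71 ± 0.33 higher in TRAP than in input at an unadjusted p of 0.0387 and an adjusted p of 0.305 (edgeR). Of all genes there, 14.8% had an unadjusted p below 0.05 and 1.24% passed the adjusted threshold. Within WT the difference was −0.05 ± 0.37, where 0.666% passed. A cassette exon of Mycbp2 (chromosome 14, 103169857 to 103170012, 156 bases, a multiple of 3) was mostly included. Its PSI was 0.965, 0.746, 0.932 and 0.971 in KO TRAP 1, 2, 4 and 5 and 0.923 to 0.981 in the 5 WT TRAP libraries, and 0.929 to 0.987 in all input libraries. KO TRAP 2 alone lay below 0.9. On the log2(PSI/(1−PSI)) scale the difference was −0.90 ± 0.78 in TRAP (limma, adjusted p = 0.933) and −0.57 ± 0.68 in input (adjusted p = 0.973), so the event did not pass in either. In TRAP 1 of 1861 splicing events passed (0.0537%), one assigned to 9130401M01Rik and Zhx1, and in input 0 of 1154 (0%). Between RNA kinds the Mycbp2 exon differed by −0.42 ± 0.52 (adjusted p = 0.851), where 2 of 2623 splicing events passed (0.0762%).

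Map3k12, the DLK kinase, was at 217, 136, 131, 97.1 and 99.4 CPM in KO TRAP 1 to 5 and at 91.1, 107, 108, 77.5 and 135 CPM in WT TRAP. KO TRAP 1 was the highest, and the groups overlapped. The log2 fold change was 0.33 ± 0.30 (95% interval −0.30 to 0.96), and it was 0.14 without that library. In input the KO libraries, at 100 to 159 CPM, lay within the WT range of 98.9 to 212 CPM, with a difference of −0.22 ± 0.28, or 0.03 without WT input 5. Its splicing events were seen in few libraries. For the skipped exon at 102508328 to 102508463 on chromosome 15 (136 bases, not a multiple of 3), PSI was 0.952 in KO TRAP 2 but 0.0619 in KO TRAP 3, 0.0661 and 0.0228 in KO input 1 and 4, and 0.0137 in WT input 5. None of the 5 events had enough values for a test.

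Stmn2 lies on chromosome 3 at 8509527 to 8561604. It was at 1871, 1684, 1904, 1832 and 1566 CPM in KO TRAP 1 to 5 and at 2025, 2105, 1848, 1668 and 1555 CPM in WT TRAP. The ranges nearly coincided. With the smallest error of the members, its log2 fold change was −0.06 ± 0.20 in TRAP (95% interval −0.48 to 0.35) and 0.04 ± 0.19 in input (−0.36 to 0.44). Between RNA kinds it differed by 0.22 ± 0.14 (adjusted p = 0.409), with a range of 1555 to 2105 CPM in TRAP and 1324 to 1914 CPM in input.

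Stmn2 also has a tandem UTR event, between UTRs of 1282 and 166 bases, whose 1116-base extension supplies 58.5% of the counted exon bases. In TRAP its PSI was 0.685, 0.850, 0.928, 0.953 and 0.979 in KO 1 to 5 and 0.989, 0.896, 0.663, 0.957 and 0.655 in WT. Both genotypes spread widely, over 0.294 and 0.334, and overlapped. In input it was 0.995, 0.992, 0.993, 0.764 and 0.970 in KO and 0.986 to 0.989 in the WT libraries, with KO input 4 alone below 0.9. On the log2(PSI/(1−PSI)) scale KO minus WT was 0.26 ± 1.22 in TRAP (adjusted p = 0.968) and −1.07 ± 1.21 in input (adjusted p = 0.897; 0 of 242, 0%, passed). TRAP libraries were 2.45 ± 0.87 lower than input (10 and 8 libraries; limma, adjusted p = 0.226), which did not pass, while 4 of 498 events (0.803%) did. In TRAP 2 of 340 events were called between genotypes (0.588%), Polr2m and the event on which Nmnat2 was selected, for which the call is no test. The Nampt UTR event (1076 against 568 bases) had 4 values, 0.931 to 0.987, too few for a test.

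In the authors' list of genes bound by tagged CELF6 in crosslinking and immunoprecipitation, Stmn2 and Sarm1 were marked as targets in the 3′ UTR. Nmnat2, Nampt, Mycbp2 and Map3k12 were not, and Nmnat1 and Nmnat3 have no event in the tables and so no entry. Of all events, 28.2% of the tandem UTR and 26.3% of the splicing events carried the mark.

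**Figure D3:**
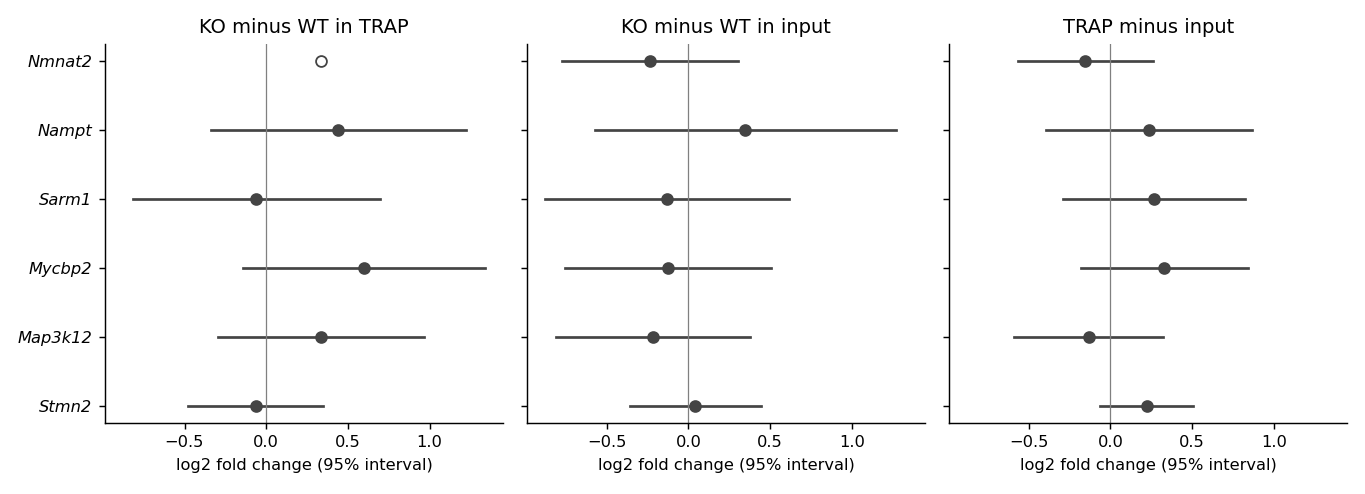
Log2 fold change (horizontal axis) of the 6 members with enough reads in 3 comparisons; points are edgeR estimates and lines 95% intervals, and the open point is Nmnat2 in the contrast that chose it, drawn with no interval. All 17 intervals cross 0, and the narrowest in each comparison is that of Stmn2.

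Between RNA kinds, 0 of the 8 members passed the test, while 673 of 14261 genes did (4.72%). The members' median log2 fold change, TRAP minus input, was 0.15 against 0.03 over all genes, and the ranges of TRAP and input libraries overlapped for each of the 8. In bulk RNA, fewer cells of a type and less RNA per cell cannot be told apart.

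Around the members, 88 genes of 6 lists were followed: NAD synthesis and transport, NAD consumption, NMNAT2 turnover and palmitoylation, DLK and JNK stress signalling, axonal cytoskeleton and growth, and calpain and caspase degeneration. Between genotypes 0 of 70 tested passed in TRAP (median 0.02) and 0 of 74 in input (median −0.01). Between RNA kinds 8 of 81 passed (9.88%), 3 higher (2.41% of all genes were) and 5 lower (2.31%), with a median of 0.07. The lists of NAD synthesis (16 tested), NMNAT2 turnover (8) and DLK and JNK signalling (16) had no called gene, with medians of −0.04, 0.09 and 0.25.

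The called genes were mostly of the axonal cytoskeleton and growth list, where 2 rose, 3 fell and 9 did not pass. Gap43, which encodes a growth cone protein, was 1.11 ± 0.17 higher in TRAP (1600 to 3180 CPM against 602 to 1380; adjusted p = 0.000189). Uchl1, a neuronal deubiquitinase gene, was 0.99 ± 0.19 higher (768 to 1590 against 386 to 667 CPM; adjusted p = 0.00155). For both, every TRAP library was above every input library. Both were named because they passed this contrast, so that separation is not further evidence. Its share over all genes was not counted.

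Of the 4 neurofilament genes of the list, which encode the filaments that set axon calibre, 2 fell and 2 did not pass. Nefm fell by 1.86 ± 0.27 (61.8 to 332 CPM in TRAP against 294 to 1230 in input; adjusted p = 7.5e-05) and Nefl by 0.76 ± 0.20 (446 to 1240 against 811 to 1960 CPM; adjusted p = 0.0265). Nefh was at −0.71 ± 0.23 (adjusted p = 0.0782) and Ina at −0.16 ± 0.19 (adjusted p = 0.715). Basp1, which encodes a membrane protein of growth cones like that of Gap43, fell by 0.61 ± 0.17 (adjusted p = 0.0301). The Nefm, Nefl and Basp1 ranges overlapped between RNA kinds.

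In the other lists, Sirt2 fell by 1.31 ± 0.20 (edgeR, adjusted p = 0.000115), with 130 to 437 CPM in TRAP against 590 to 1020 in input. It is a NAD-dependent deacetylase gene that is abundant in oligodendrocytes. The 9 oligodendrocyte markers fell with it, 6 of 9 past the threshold with a median of −1.44; their part in the result was not tested. Capns1, the small subunit of calpain, rose by 0.68 ± 0.20 (adjusted p = 0.0496). Gap43, Uchl1, Nefm and Sirt2 stayed past the threshold whichever library was left out. Nefl, Basp1 and Capns1 lost it in 2, 7 and 13 of 18 such fits, and without KO TRAP 1 and WT input 5 together 6 list genes passed, 4 of the 8 among them.

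**Figure D4:**
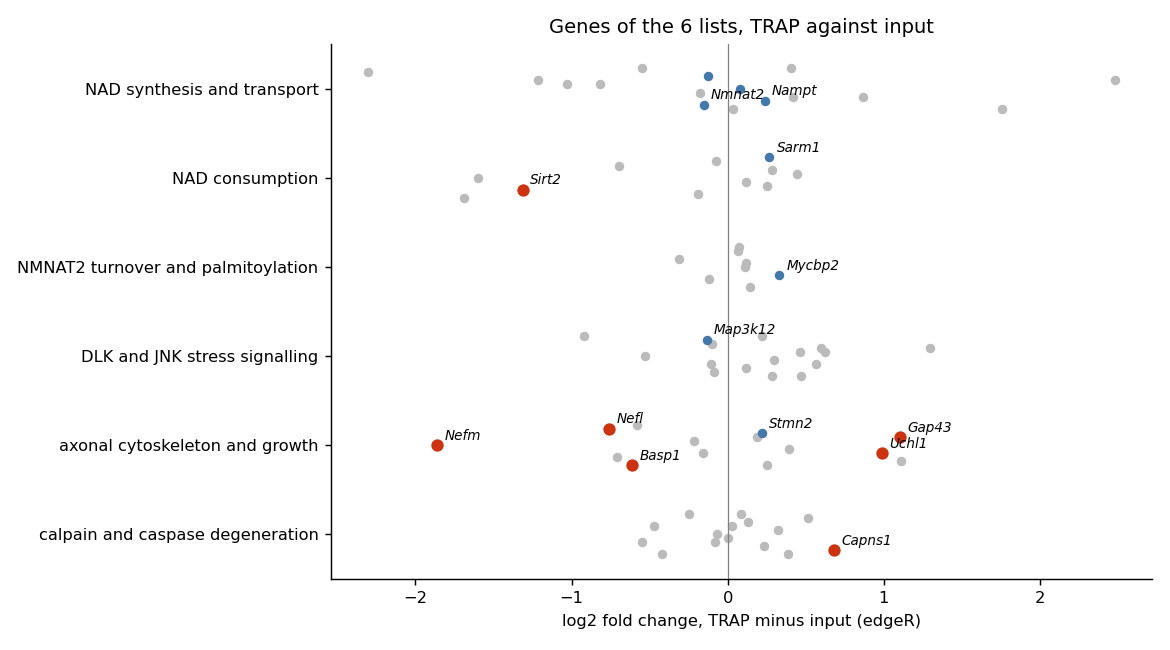
Log2 fold change, TRAP minus input (horizontal axis), of tested genes of the 6 lists (rows, points spread vertically for legibility); red points passed an adjusted p of 0.05, blue points are the members and grey points the other genes. All blue points lie near 0, while 5 of the 7 red points belong to the axonal cytoskeleton list.

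The level of Nmnat2 did not follow that of any other member closely. Over the 18 libraries, with each group's mean subtracted from log2 CPM, Pearson's r with Nmnat2 was 0.37 for Map3k12, 0.36 for Sarm1, 0.12 for Stmn2, 0.03 for Mycbp2 and −0.08 for Nampt. The highest 2 of these ranked 1276 and 1422 among 11349 genes. The 5 of 11349 genes with the highest r were Tnrc18 (0.85), Dnajc5 (0.85), Polrmt (0.84), Usf1 (0.83) and Sec23b (0.82). Without subtraction they were Nup62 (0.83), Dnajc5 (0.80), Larp1 (0.80), Zfp248 (0.79) and Lonrf2 (0.79), and Dnajc5, which encodes a synaptic vesicle co-chaperone, was in both. Libraries of 1 brain and 1 run share sources, so these values are a description, picked as the highest of many.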

How the data were processed

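Counts per gene were deposited by the authors as whole numbers, made with featureCounts 1.4.6-p5 over the exons of each gene in mm10, per the file headers. The submitters' processing notes name Trimmomatic and STAR without versions. PSI values are fractions between 0 and 1 that the authors made with MISO. The authors' deposited p-values and false discovery rates rest on an ANOVA of the log odds, per the file headers. Amplification used Nugen Ovation 2, per the labels.

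The 4 repeat runs of replicate 3 were not used, nor was WT input 4 (325072 counts), which the submitters mark as an outlier. WT input 2 and 3 were summed and their PSI averaged: they differed by a chi-square per gene of 1.34, repeat runs by 1.37 to 2.58 and other pairs within a group by 24.7 to 90.3. No label says that libraries of 1 group came from separate litters, so p-values measure only the spread between these samples.

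Counts were fitted with edgeR 4.0.16 in R 4.3.3: filterByExpr, TMM factors, the quasi-likelihood test with sequencing run as covariate, and Benjamini-Hochberg adjustment over all genes at a threshold of 0.05. CPM use TMM library sizes, and log2 CPM a prior count of 2. TRAP against input was the mean of the KO and WT differences. PSI, held between 0.01 and 0.99, was fitted on log2(PSI/(1−PSI)) with limma 3.58.1, with no covariate between genotypes and with genotype between RNA kinds. An event needed 3 libraries with a value on each side. The alternatives were DESeq2 1.42.0, DESeq2 size factors, no filter, no run term, a replicate block, other PSI limits and leaving out each library. The scripts were tested on simulated data.

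Equal numbers mark the same brain in TRAP and input, by the series text, although KO 1 and WT 5 differed between RNA kinds in Xist and Y-linked reads. Residual levels of same-numbered libraries correlated at −0.204 to 0.057 in KO (5 pairs) and −0.169 to −0.002 in WT (4 pairs), and at −0.205 to 0.041 between genotypes in TRAP.

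The members and lists were chosen with earlier results of these data known. Named genes were the 8 members, list genes past the threshold (up to 4 per direction and list), the 5 genes most correlated with Nmnat2 by each measure, and Celf6. Nefh, Ina, Polr2m, 9130401M01Rik and Zhx1 were chosen after their values were seen. One called list gene is included in the counts and not reported here. Gene positions are those of the count files (mm10).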

Additional observations from a re-analysis of the deposited data

Results flagged for a closer look

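Within groups of 4 or 5 libraries, 37 sets of values of the members and Celf6 were checked for a library far from the others. Chance gives this in about 1 in 20 sets, and 5 stood out. Mycbp2 was at 497 CPM in WT TRAP 1, with the next WT TRAP library at 279.1. Nmnat1 was at 6.39 CPM in the same library, with the next at 0.3132. Nmnat3 was at 3.754 CPM in KO TRAP 3, with the other 4 at 0, and at 7.94 CPM in WT TRAP 4, with the next at 0.2362. The Stmn2 tandem UTR PSI was 0.764 in KO input 4, with the next KO input library at 0.9704. Smaller groups were not checked.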

How the results depend on the processing

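Of 446 refitted values of the members in 25 comparisons with a test, 0 passed the threshold (lowest adjusted p 0.0637, limma) and 35 changed sign, in 10 comparisons. Genotype calls among all genes were 9 in TRAP and 4 in input with DESeq2, 16 and 4 without a filter, and 0 to 1 in input with 1 library left out. Calls between RNA kinds, 673 in all, were 1332 with DESeq2, 1065 without a filter, 346 to 831 with 1 library left out (346 without WT input 5 and 363 without WT input 1) and 337 without KO TRAP 1 and WT input 5, a choice made after seeing the data; list genes called ranged from 4 to 10 with 1 library left out (4 without WT input 1, 5 each without WT TRAP 2, WT TRAP 3, KO input 1 or WT input 5). The cause was not tested.

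With the replicate number as a block, calls between RNA kinds were 540, tandem UTR calls were 0 in TRAP and 0 between RNA kinds, splicing calls likewise 0 and 0, no member was called, and Nmnat1 turned to −1.230. PSI calls in TRAP rested on few events: tandem UTR 1 at limits of 0.05 and 0.95, 1 with run as covariate and 0 to 2 with 1 library left out; splicing 2 at a minimum of 2 libraries, 0 with run as covariate and 0 to 1. Between RNA kinds they ranged from 0 to 3 (splicing) and 3 to 8 (tandem UTR, 8 without KO TRAP 3). The Nmnat2 UTR difference in TRAP was 4.28 at limits of 0.05 and 0.95 and 5.19 to 5.89 with 1 library left out. Leaving out a WT input library left no event with 3 WT values, so gave no PSI test.

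Log2 fold changes that turned sign with 1 library left out ranged, KO minus WT in TRAP, from −0.38 to 0.17 for Sarm1; in input from −0.425 to 0.018 for Nmnat2, −0.56 to 0.38 for Sarm1, −0.29 to 0.06 for Mycbp2, −0.36 to 0.03 for Map3k12 and −0.032 to 0.127 for Stmn2; and TRAP minus input from −0.253 to 0.069 for Map3k12, −1.25 to 0.91 for Nmnat1 and −3.79 to 2.39 for Nmnat3. The Stmn2 UTR difference in TRAP ranged from −0.31 to 1.07. Nmnat1 was at −0.093 and −0.069, and Nmnat3 at 0.112 and 0.056, without the run term and with WT input 2 and 3 as 2 libraries. Low counts limit Nmnat1 and Nmnat3 most, and the missing PSI values limit Nmnat2.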
